A study of Homo sapiens with 2 samples.

Results

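The genes described here are 90 potassium channel genes among the 34280 gene symbols that the H3K9me3 table holds on chromosomes 1 to 22. The rule for membership takes symbols made of KCN, 1 or 2 letters and a number, and uses no measured value of a gene. H3K9me3, trimethylation of lysine 9 of histone H3 and a mark of silent heterochromatin, was mapped by chromatin immunoprecipitation and sequencing (ChIP-seq) in KBM7, a near-haploid cell line of chronic myeloid leukemia origin, with no treatment named. Of the 2 libraries of the study, 1 for H3K9me3 and 1 for IgG, only the H3K9me3 library was analysed here, so no value has a replicate or a control beside it and no p-value is given. ChIP reads give no expression, so the cell type could not be set against marker genes, and whether a channel gene was transcribed was not measured. The score of a gene is the number of reads in its interval per kb of interval. A peak is a stretch called by the authors, and peak cover is the percent of the interval that lies in peaks.

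Potassium channels let potassium ions out of or into cells and so set the resting potential and end action potentials. Pore-forming subunits fall into voltage-gated families, inward rectifiers, two-pore-domain leak channels and channels opened by calcium or sodium, and accessory subunits change how these open. Most members are best known from neurons, heart, muscle or transporting epithelia, and a few from blood cells, where they set the calcium entry that follows activation. H3K9me3 is laid down by methyltransferases such as SETDB1 and bound by HP1 proteins, and it is known both from repeats and from genes silenced in a lineage.

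The promoters of 8 members are shown to set genes with a peak at the start beside genes without any: 4 short genes of the shaker subfamily KCNA with a peak within 1 kb of the start, and 4 channel genes known from blood cells with no peak. Each sequence holds the 250 bases before the outermost start in RefSeq on GRCh38.p14, read 5′ to 3′ on the strand of the gene, with CpG dinucleotides in capitals. The peaks are on hg19 and the promoters on GRCh38.p14, so the 2 were not intersected, and a promoter is shown only where the RefSeq gene length lay within 10% of the interval in the table. The positions are chr1:110519176-110519425 (minus strand) for KCNA10, chr12:5043629-5043878 (plus) for KCNA5, chr19:49072700-49072949 (minus) for KCNA7 and chr11:30017031-30017280 (minus) for KCNA4. For the blood cell genes they are chr19:43780974-43781223 (minus) for KCNN4, chr1:5992426-5992675 (plus) for KCNAB2, chr17:70169282-70169531 (plus) for KCNJ2 and chr7:150978322-150978571 (minus) for KCNH2.
KCNA10: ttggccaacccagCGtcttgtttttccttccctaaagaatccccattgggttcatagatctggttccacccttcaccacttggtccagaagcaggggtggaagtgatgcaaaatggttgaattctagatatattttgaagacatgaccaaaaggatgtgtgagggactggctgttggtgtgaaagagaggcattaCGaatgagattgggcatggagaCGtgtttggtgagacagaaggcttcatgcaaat
KCNA5: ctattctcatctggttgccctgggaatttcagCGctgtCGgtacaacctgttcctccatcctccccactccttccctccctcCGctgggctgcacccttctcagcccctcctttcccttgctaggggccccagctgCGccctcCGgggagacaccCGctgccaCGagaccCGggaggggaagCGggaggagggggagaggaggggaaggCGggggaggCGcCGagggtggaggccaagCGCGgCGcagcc
KCNA7: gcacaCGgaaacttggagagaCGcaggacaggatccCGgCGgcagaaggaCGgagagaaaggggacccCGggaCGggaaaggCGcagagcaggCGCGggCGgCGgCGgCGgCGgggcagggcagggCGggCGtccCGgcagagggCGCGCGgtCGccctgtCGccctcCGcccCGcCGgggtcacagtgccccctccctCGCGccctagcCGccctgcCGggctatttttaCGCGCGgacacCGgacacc
KCNA4: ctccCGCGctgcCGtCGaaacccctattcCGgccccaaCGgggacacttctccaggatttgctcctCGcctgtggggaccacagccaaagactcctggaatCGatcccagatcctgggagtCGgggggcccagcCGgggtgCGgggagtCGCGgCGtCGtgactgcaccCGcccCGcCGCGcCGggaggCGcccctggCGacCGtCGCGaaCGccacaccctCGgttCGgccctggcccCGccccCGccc
KCNN4: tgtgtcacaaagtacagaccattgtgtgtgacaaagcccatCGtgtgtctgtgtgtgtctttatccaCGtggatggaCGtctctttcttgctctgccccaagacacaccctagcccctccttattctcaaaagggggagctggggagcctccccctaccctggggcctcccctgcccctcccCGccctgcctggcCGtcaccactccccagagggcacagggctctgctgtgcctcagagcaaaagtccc
KCNAB2: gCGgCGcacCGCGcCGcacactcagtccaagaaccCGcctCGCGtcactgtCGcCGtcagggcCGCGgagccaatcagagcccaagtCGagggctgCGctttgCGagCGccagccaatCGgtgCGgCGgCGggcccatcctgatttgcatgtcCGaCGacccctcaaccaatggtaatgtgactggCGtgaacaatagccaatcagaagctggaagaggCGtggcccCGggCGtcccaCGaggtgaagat
KCNJ2: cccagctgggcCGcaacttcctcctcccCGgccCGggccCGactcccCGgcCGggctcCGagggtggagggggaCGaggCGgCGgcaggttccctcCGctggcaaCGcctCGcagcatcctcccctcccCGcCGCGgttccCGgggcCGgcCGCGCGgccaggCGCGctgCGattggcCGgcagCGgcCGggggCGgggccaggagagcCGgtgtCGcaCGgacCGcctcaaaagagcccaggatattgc
KCNH2: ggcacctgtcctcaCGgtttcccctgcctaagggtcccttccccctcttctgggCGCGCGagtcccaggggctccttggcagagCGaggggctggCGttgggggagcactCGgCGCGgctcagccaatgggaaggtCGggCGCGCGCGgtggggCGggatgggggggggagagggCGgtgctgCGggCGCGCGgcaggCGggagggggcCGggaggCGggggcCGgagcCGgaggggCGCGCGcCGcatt

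The promoters of genes with and without a peak within 1 kb of the start overlapped in CpG number. In KCNA10 and KCNA7 that peak began inside the gene, and the 10 kb before the start held none. The shaker promoters held 3 CpG in KCNA10, 15 in KCNA5, 34 in KCNA7 and 30 in KCNA4. The promoters of the blood cell genes without a peak held 5 CpG in KCNN4, 27 in KCNAB2, 32 in KCNJ2 and 29 in KCNH2. Over the 26246 RefSeq promoters of chromosomes 1 to 22 the median was 10 (25th to 75th percentile 3 to 23), and 93.6% held at least 1 CpG. KCNA10 lay at the 25th percentile, KCNA5 and KCNN4 between the 25th and the 75th, and the others above the 75th. Only 68 of the 90 members (75.6%) matched the promoter table, so a check of CpG number over all members is void.

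Potassium channel genes carried somewhat higher H3K9me3 scores than the symbols of the table at large, and they more often held a peak. Their median score was 51.2 reads per kb (25th to 75th percentile 33.0 to 81.4), against 43.6 for all symbols (24.0 to 77.4) and 34.6 for protein-coding symbols. The scores ran from 13.7 in KCNK7 to 188 in KCNS2, and 55 members exceeded the all-symbol median and 35 lay below it, where by construction 17140 of the 34280 symbols lie above. Only 4 members, KCNS2, KCNA3, KCNG2 and KCNA1, passed the 90th percentile of all symbols, 147 reads per kb, which 10.0% of all symbols did. At least 1 peak lay over 59 members, 65.6% (exact 95% binomial interval 54.8 to 75.3), against 37.1% of all symbols and 44.1% of protein-coding symbols. Members were long, with a median of 40.6 kb against 11.8 kb for all symbols, and a longer interval has more room for a peak (the shares within length classes follow below). At least 50% of the interval lay in peaks in 9 members, against 5.64% of all symbols. Mean cover was 15.2% in members and 8.22% in all symbols, whereas the medians were 3.29% and 0%, so a few strongly covered members set the mean. The intervals held 681606 reads, 43 to 51987 per gene, and the brackets after single scores and shares hold exact 95% intervals (Poisson and binomial) for counting error alone.

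**Figure D1:**
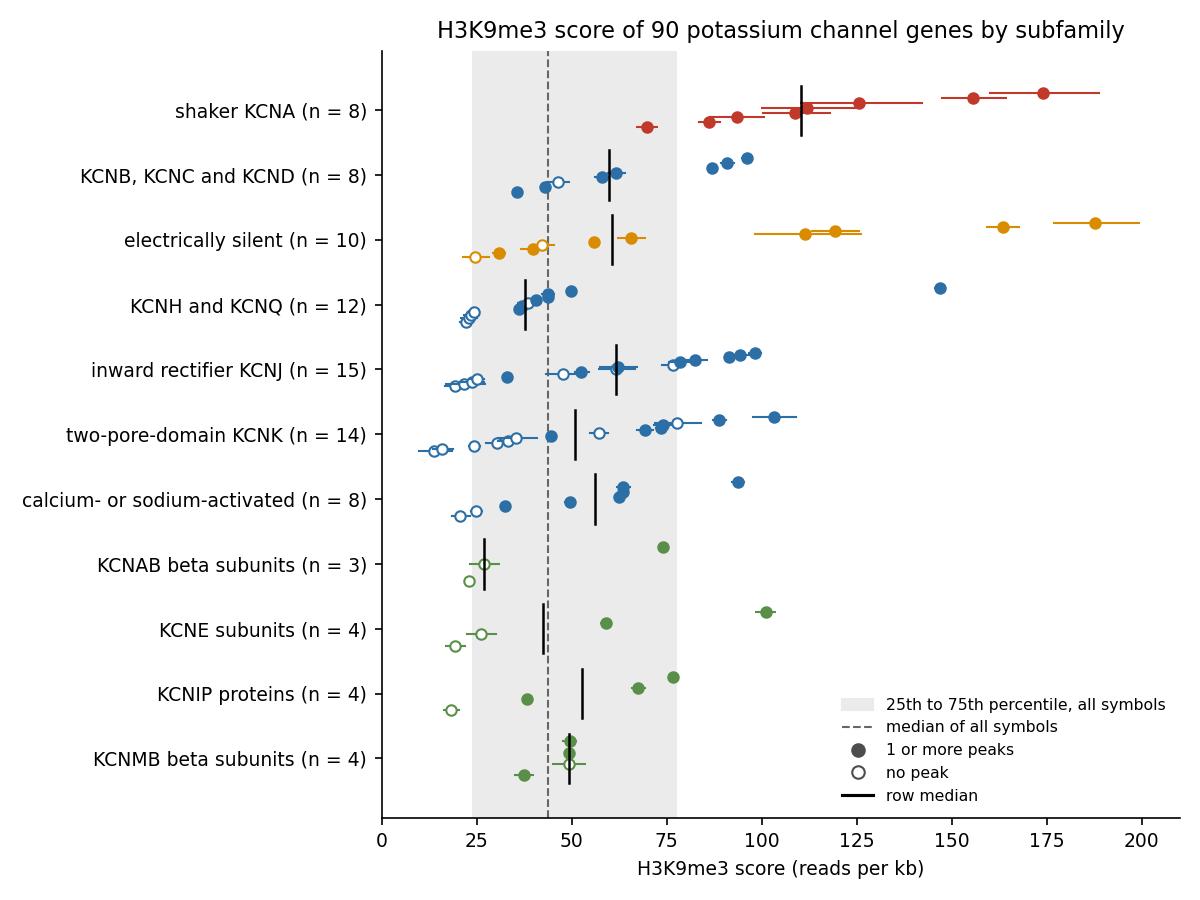
H3K9me3 score (reads per kb, x axis) of each of the 90 potassium channel genes by subfamily or joined subfamilies; points are genes with exact 95% Poisson intervals, filled where a peak lies over the gene and open where none does, black bars are row medians, the dashed line is the median of all symbols (43.6) and the grey band their 25th to 75th percentile (24.0 to 77.4). All 8 KCNA genes lie right of the dashed line and are filled, and 4 genes, 2 of them KCNA, lie above 147, the 90th percentile of all symbols.

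The shaker subfamily KCNA, voltage-gated channels that shape firing in axons and repolarise heart and lymphocytes, stood highest. All 8 genes exceeded the all-symbol median and had a peak, and their scores ran from 69.8 to 174 reads per kb with a median of 110.4. Of all symbols 37.1% had a peak, a share not matched for gene length, here and for the subfamilies below. KCNA3, the main voltage-gated potassium channel of T lymphocytes, scored 174 (160 to 189) and was covered over 94.3% of its 3.35 kb. KCNA1, an axonal channel mutated in episodic ataxia, scored 156 (147 to 164) with 67.4% cover. KCNA10, a channel needed by vestibular hair cells in mouse, scored 126 (110.4 to 142) with 84.2%, and KCNA5, which carries the ultrarapid current of the atrium, scored 112 (100.1 to 125) with 89.5%. KCNA7, expressed in muscle and heart, scored 109 (100.3 to 118) with 67.9%. The lowest were KCNA4, a channel of transient outward current, at 93.4 (86.5 to 101) with 35.3% cover, KCNA6, a brain channel, at 86.2 (83.4 to 89.0) with 39.0%, and KCNA2, an axonal partner of KCNA1, at 69.8 (67.1 to 72.5) with 5.15%. The 6 genes under 10 kb were thus those with the higher scores, and the 2 longer ones, KCNA6 (41.9 kb) and KCNA2 (37.9 kb), were lowest.

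Peaks of the KCNA genes lay at the start and over the body, not only in the surroundings. A peak fell within 1 kb of the start in 7 of the 8, and the exception was KCNA2, whose start lay 8605 bp from the nearest peak. Over the start base itself lay peaks of 5400 bp in KCNA3, 5700 bp in KCNA1, 2550 bp in KCNA5, 4200 bp in KCNA4 and 7800 bp in KCNA6. In KCNA10 and KCNA7 the first peak began 297 and 748 bp inside the gene, and the 10 kb on either side of both genes held none. In the 6 KCNA genes of 3 kb or more, cut into 10 equal parts, mean cover was 60.1% in part 1, between 51.4% and 71.0% in parts 2 to 8, and 22% and 7.16% in parts 9 and 10. Over members other than KCNA it lay between 8.14% and 11.8% in every such part, and over protein-coding symbols between 6.46% and 7.13%.

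**Figure D2:**
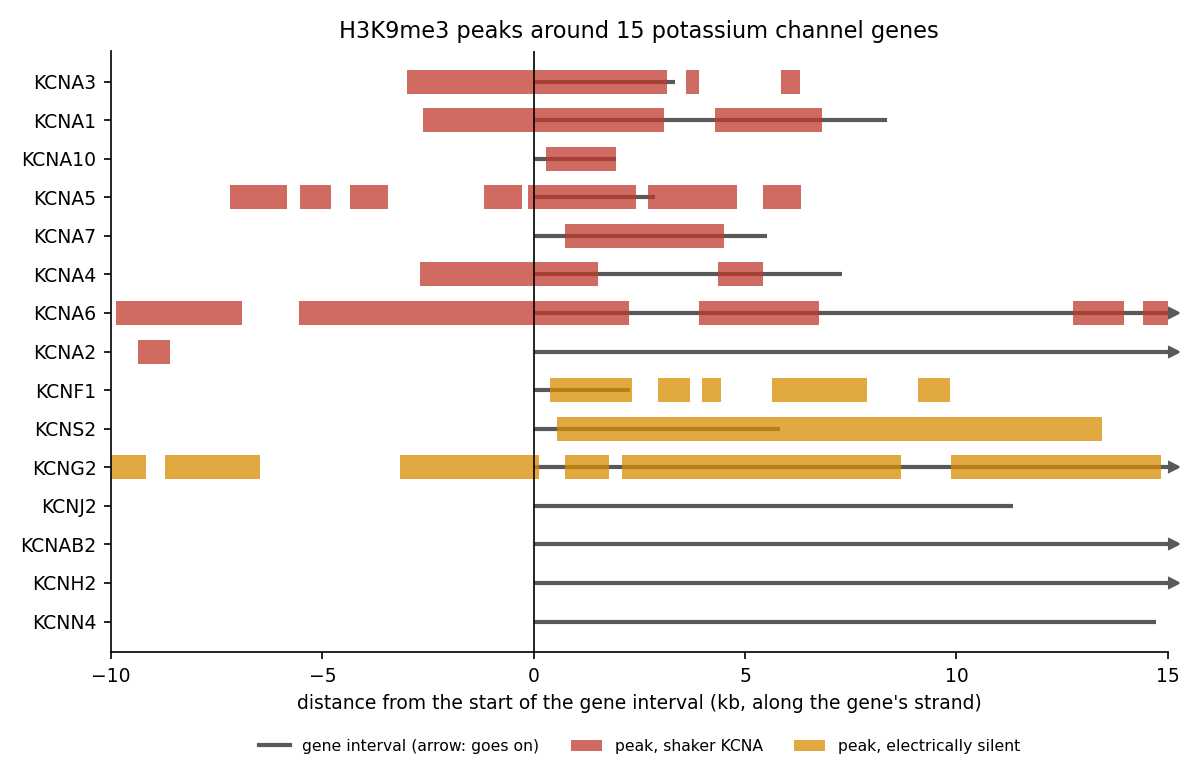
Peaks (coloured bars) from 10 kb before to 15 kb after the start of 15 potassium channel genes, as distance from the start along the strand of the gene (kb, x axis); grey lines are the gene intervals, red marks KCNA and orange electrically silent genes. The 4 lowest rows, KCNJ2, KCNAB2, KCNH2 and KCNN4, show no peak in this window, whereas 7 of the 8 KCNA genes have one within 1 kb of the start.

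The electrically silent subunits KCNF, KCNG, KCNS and KCNV, which form no channel alone and change the currents of other voltage-gated subunits, were split. Their 10 scores ran from 24.7 to 188 reads per kb with a median of 60.7. A peak lay over 8 of them (80.0%, 44.4 to 97.5), against 37.1% of all symbols. KCNS2 scored 188 (177 to 199), the highest of all members, with 90.5% of its 5.83 kb inside 1 peak of 12900 bp. It lies on chromosome 8, which KBM7 is known to carry in an extra copy, and reads were not corrected for copy number. KCNG2 on chromosome 18 scored 163 (159 to 168) with 83.8% cover, and the widest peak over any member, 23400 bp at 77646901 to 77670300 (hg19), overlaps it and runs past its end. KCNV1, also on chromosome 8, scored 119 (113 to 126) with 19.1% cover. KCNF1 scored 111 (98.2 to 126) with 83.0% of its 2.29 kb in a peak of 1950 bp. The other 6 lay lower, KCNG1 at 65.6, KCNS3 at 55.7, KCNG4 at 42.2, KCNV2, a subunit of photoreceptors, at 39.9, KCNG3 at 30.8 and KCNS1 at 24.7 (21.5 to 28.2), and none of these was covered over more than 7.03%.

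Among the other voltage-gated families, members of the KCNB, KCNC and KCND subfamilies ran from low to high. KCNB2, which carries a delayed rectifier current of neurons and lies on chromosome 8, scored 86.8 (85.9 to 87.7) with 4.45% cover. Of the shaw genes, channels of fast-spiking neurons, KCNC1 scored 61.7 (59.5 to 64.0) with 19.9% cover, KCNC4 58.0 (56.3 to 59.8) with 7.35% and KCNC2 43.1 (42.1 to 44.1) with 2.06%. The shal genes, which carry transient currents of heart and dendrites, differed, with KCND3 at 96.2 (94.9 to 97.5) in 30 peaks over 30.6% of its length and KCND2 at 35.5 (35.0 to 36.0) in 2 peaks over 0.755%.

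The median score of the ether-a-go-go genes, 37.2 reads per kb, lay between those of protein-coding symbols (34.6) and all symbols (43.6). Both of these values fall inside the range of the 8 genes. All 8 KCNH genes scored under 50 reads per kb and none had more than 3.33% cover. The highest was KCNH1 at 49.9 (49.2 to 50.5), and the lowest KCNH2, the hERG channel of cardiac repolarisation, at 22.2 (20.6 to 23.9). The 4 genes KCNH2, KCNH3, KCNH4 and KCNH6 had no peak. Of the KCNQ genes, which carry M-currents of neurons among others, KCNQ5 scored 36.8 (36.3 to 37.3) with 1.82% cover. KCNQ3 scored higher, at 147 (146 to 148) with 35.6% cover and peaks of up to 18300 bp, and it lies on chromosome 8.

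Inward rectifiers, which hold the resting potential, covered the range from low to high. The median of the 15 KCNJ genes was 61.8 reads per kb. A peak lay over 8 of them (53.3%, 26.6 to 78.7), against 37.1% of all symbols. KCNJ15 was highest at 98.2 (96.6 to 99.8), and next to it on chromosome 21 KCNJ6, a G protein-gated channel of neurons, scored 91.4 (90.3 to 92.5), with 34.2% and 29.7% of their lengths in 27 and 52 peaks. KCNJ12, a cardiac and muscle channel, scored 94.4 (91.5 to 97.4) with 33.2% cover from 1 peak of 14550 bp. It has a near-identical copy, KCNJ18, that RefSeq lists and the table has 0 intervals of, so its reads may come from both and its value is uncertain. KCNJ10, a channel of glia and kidney, scored 82.3 and KCNJ5, a G protein-gated channel of the atrium, 78.6. KCNJ1, the renal ROMK channel, scored 76.7 without any peak, close to KCNJ5, so a high score did not need a called peak. The lowest were KCNJ11, the pore of the ATP-sensitive channel of beta cells, at 21.6 (17.0 to 27.1), and KCNJ13, an epithelial channel, at 19.2 (16.6 to 22.1), both without a peak.

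Two-pore-domain channels, which carry leak currents, held both strongly covered genes and the lowest scores. The median of the 14 KCNK genes was 50.9 reads per kb. A peak lay over 6 of them (42.9%, 17.7 to 71.1), close to the 37.1% of all symbols and 44.1% of protein-coding symbols. KCNK18, the TRESK channel of sensory neurons, scored 103 (97.8 to 109) with 63.3% cover, and KCNK13 scored 88.8 with 30.0%. KCNK7 was the lowest of all members at 13.7 (9.90 to 18.4) on 43 reads, followed by KCNK6 at 15.9 (13.5 to 18.8), and the counting intervals of the 2 scores overlap. KCNK5, an acid-sensitive channel of kidney, scored 24.4, KCNK17 33.3 and KCNK16 77.7, although these 3 genes lie within 134 kb of chromosome 6. KCNK16 had no peak over its interval but 1 of 900 bp that came within 857 bp of its start.

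For calcium- and sodium-activated channels the median over 8 genes was 56.0 reads per kb, and 6 had a peak. KCNU1, a channel of sperm, was placed in this class by its symbol alone. It was highest at 93.8 (92.2 to 95.3) with a cover of only 2.96%, and it lies on chromosome 8. KCNMA1, the BK channel, scored 63.4 (62.9 to 64.0) over 761 kb in 71 peaks, the largest number with that of KCNAB1. KCNN4, the intermediate-conductance channel of red cells and lymphocytes, was lowest at 20.7 (18.4 to 23.2) with no peak.

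None of the 15 accessory subunits passed the 90th percentile of all symbols, which 4 of the 75 pore-forming members and 10.0% of all symbols did. With so few genes this does not set them apart from either share. Their 15 scores had a median of 49.2 reads per kb, against 57.1 for the 75 pore-forming members. KCNE1, the partner that slows a cardiac delayed rectifier, was highest at 101 (98.6 to 103) with 48.5% cover in 16 peaks, and KCNE3, a subunit of epithelial channels, was lowest of its subfamily at 19.3 (17.0 to 21.9). Among the KCNIP proteins, calcium sensors that bind KCND channels, KCNIP1 scored 76.7 (75.9 to 77.6) and KCNIP2, the cardiac partner, 18.2 (16.3 to 20.3). The beta subunits of KCNA channels split into KCNAB1 at 74.1 (73.3 to 74.8), with 71 peaks over 15.5% of its length, and KCNAB2 and KCNAB3 at 23.0 (22.1 to 23.9) and 26.8 without a peak. The KCNMB subunits of the BK channel lay close together, from KCNMB3 at 37.3 (35.1 to 39.7) to KCNMB4 at 49.5 (47.8 to 51.2). KCNMB1 lies inside the interval of KCNIP1 and shares its reads, and 45 members in all overlap another symbol.

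Of 5 channel genes known from blood cells, 1 had a peak, against 37.1% of all symbols, and with 5 genes the exact binomial interval of that share (0.505% to 71.6%) includes this value. KCNA3, described above, scored 174, whereas KCNJ2, an inward rectifier found in macrophages and muscle, scored 61.8 (57.3 to 66.5). KCNAB2, KCNH2 and KCNN4 scored 23.0, 22.2 and 20.7, under the 25th percentile of all symbols, 24.0. The list is short and was put together with earlier results of this library known.

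Gene length and score were nearly unrelated, whereas the number of peaks followed length. Across the 90 members Spearman's rho with interval length was 0.05 for the score, 0.69 for the number of peaks and 0.13 for the cover, as a description of genes that share 1 library. The 28053 symbols of 1 kb or more gave 0.05, 0.56 and 0.35. Under 10 kb, 8 of 17 members had a peak (47.1%, exact binomial interval 23.0 to 72.2), against 17.0% of all symbols and 19.3% of protein-coding symbols. All 6 KCNA genes of that class had one, and 2 of the other 11 did, KCNS2 and KCNF1, which is a share (18.2%, 2.28 to 51.8) close to that of all symbols. From 10 to 50 kb the share was 39.4% (13 of 33), close to the 37.7% of all symbols and above the 32.7% of protein-coding ones. From 50 to 200 kb it was 90.9% (20 of 22), against 74.0% and 70.3%. All 18 members of 200 kb or more had a peak, and so did 97.4% of all symbols of that length. Set within length classes, members thus stood above all symbols at under 10 kb, where the share without KCNA was 18.2%. They also did at 50 to 200 kb, where the interval of the members (70.8 to 98.9) reaches below the share of all symbols. The classes do not match length fully. Under 10 kb the median length was 5.83 kb in members, 1.77 kb in all symbols and 4.47 kb in protein-coding symbols.

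**Figure D3:**
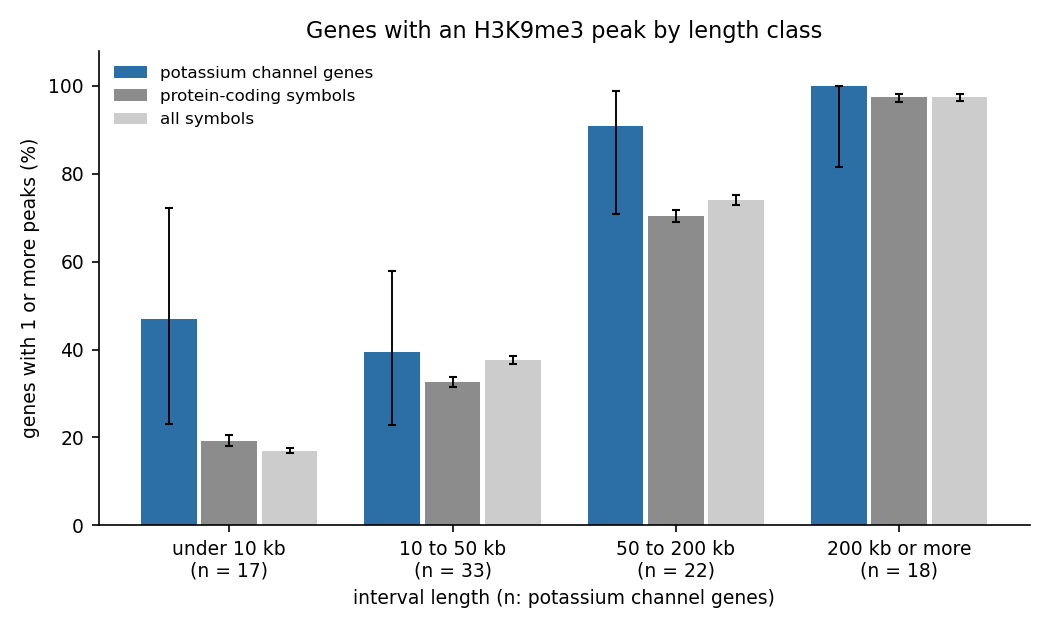
Percent of genes with 1 or more peaks (y axis) in 4 classes of interval length, for potassium channel genes, protein-coding symbols and all symbols; error bars are exact 95% binomial intervals. The channel genes reach 47.1%, 39.4%, 90.9% and 100%, against 17.0%, 37.7%, 74.0% and 97.4% of all symbols.

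High cover was found in short members, as it was in short symbols of the table at large. Of the 9 members with 50% or more of the interval in peaks, 7 were under 10 kb, and the others were KCNG2 (36.1 kb) and KCNK18 (12.8 kb). Among all symbols, 1452 of the 1935 with such cover were under 10 kb. Mean cover was 36.0% under 10 kb, 10.3% from 10 to 50 kb, 11.7% from 50 to 200 kb and 8.91% at 200 kb or more, against 9.69%, 7.37%, 6.40% and 5.92% in all symbols. Without KCNA the mean under 10 kb was 15.8% over 11 genes. The 5 longest members had low to moderate cover. KCNIP4 held 6 peaks over 0.541% of 1220 kb, KCNQ5 12 peaks over 1.82% of 577 kb and KCNMB2 20 peaks over 3.25% of 571 kb, whereas KCNMA1 and KCNAB1 held 71 peaks each, over 8.24% of 761 kb and 15.5% of 501 kb. The longest member without a peak was KCNAB2, at 109.7 kb.

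**Figure D4:**
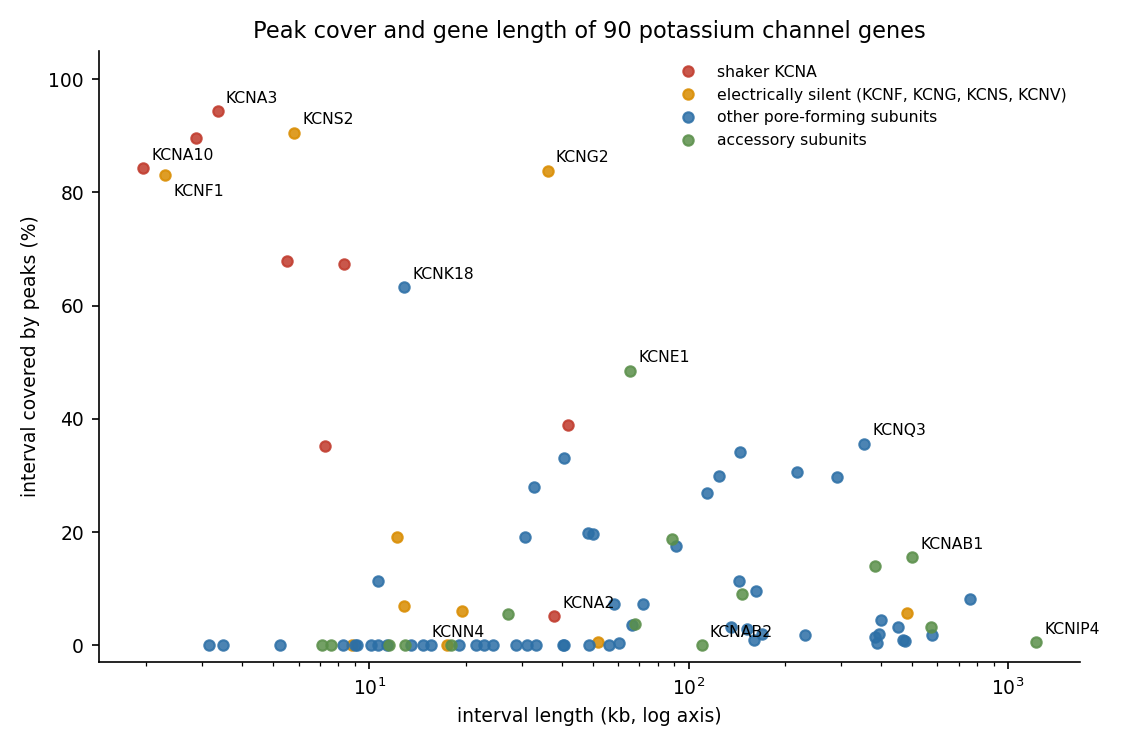
Percent of the interval covered by peaks (y axis) against interval length (kb, log x axis) for the 90 potassium channel genes, coloured by kind. The 9 genes above 50% are 5 KCNA genes, KCNS2, KCNG2, KCNF1 and KCNK18, and no gene longer than KCNG2 (36.1 kb) is above 50%.

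A peak within 1 kb of the start was found for 26 members, 28.9% (19.8 to 39.4), against 14.3% of all symbols. Without KCNA it was found for 19 of 82 members, 23.2% (14.6 to 33.8). Of the 26, 7 were KCNA genes, 5 electrically silent genes and 5 KCNK genes, and 0 were KCNE or KCNMB genes, subfamilies of 4 genes each. The widest were 12900 bp in KCNS2, 7800 bp in KCNA6, 5700 bp in KCNA1, 5400 bp in KCNA3 and 5100 bp in KCNK10, a leak channel of neurons. KCNJ6 had 4200 bp, KCNC2 3600 bp, KCNV1 and KCNG2 3300 bp each, KCNK1 3000 bp, KCNK12 2100 bp and KCND2 1950 bp. In some long genes with a low score the start was 1 of few marked places. KCNJ3, a G protein-gated channel of atrium and brain, scored 32.9 and had a single peak in 160 kb, of 2850 bp and over the start. KCNC2 had a single one in 170 kb, of 3600 bp and over the start. KCND2 had 2 in 477 kb, KCNT2 4 in 383 kb and KCNH7 7 in 467 kb, and in each 1 of them lay in the start window.

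Potassium channel genes scored above the genes around them more often than not. The score was higher than the median of neighbours within 500 kb in 61 of 90 members (67.8%), against 50.1% of all symbols of 1 kb or more and 46.6% of the protein-coding ones. It was 2 times that median or more in 18 members (20%), against 12.3% of all symbols, and 0.5 times or less in 9 (10.0%), against 12.6%. The median ratio was 1.22 in members and 1.00 in all symbols of 1 kb or more. Members and neighbours were related, with a Spearman's rho of 0.43 over the 90 members, which share 1 library and in part the same neighbours. All 8 KCNA genes exceeded their neighbours, 5 of them by 2 times or more, with a median ratio of 2.27. KCNA7 scored 109 against 27.4 for 54 neighbours, KCNN3 62.5 against 15.8 for 47 and KCNA3 174 against 44.2 for 19, ratios of 3.97, 3.95 and 3.94. At the other end KCNN4 scored 20.7 among 37 neighbours with a median of 102, a ratio of 0.202, and KCNJ11 scored 21.6 against 62.4 for 13, a ratio of 0.346. KCNN2 scored 49.5 against 139, a ratio of 0.355 that rests on 2 neighbours.

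**Figure D5:**
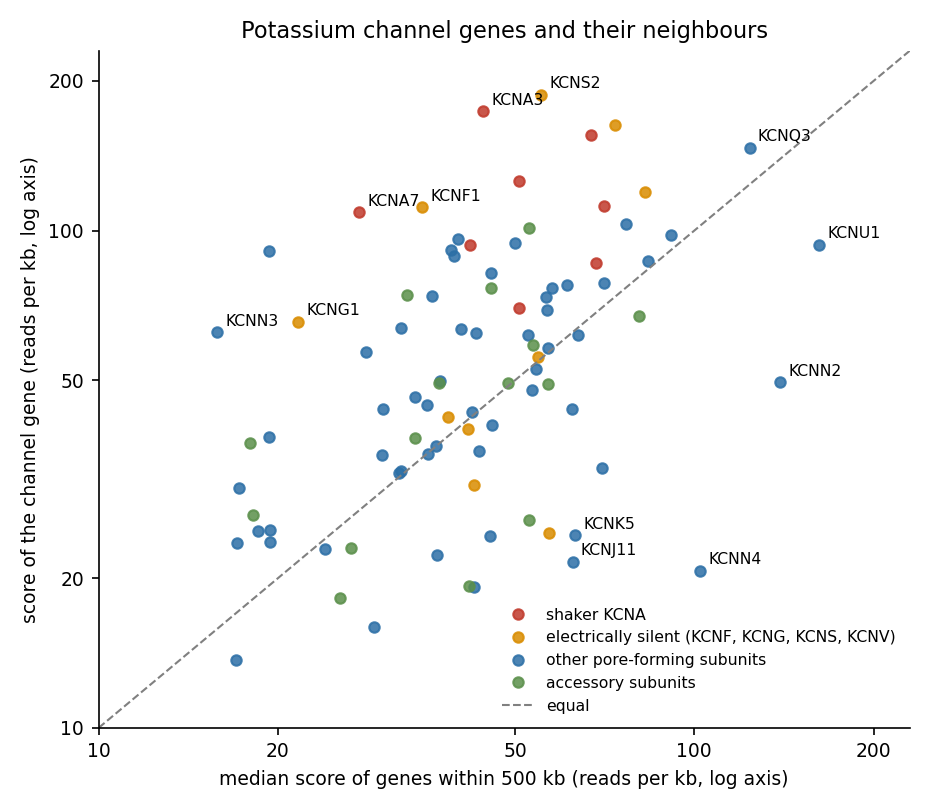
Score of each potassium channel gene (reads per kb, log y axis) against the median score of genes within 500 kb that do not overlap it (log x axis), coloured by kind; the dashed line marks equal values. All KCNA points lie above the line, KCNA7 at 3.97 times, and KCNN4 (0.202 times) lies farthest below.

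Members that lie close together had like scores in some groups and unlike scores in others. Of 13 groups of members within 1 Mb of each other, 30 genes in all, the highest score was 2 times or more the lowest in 5 and less than that in 8. On chromosome 1, KCNC4, KCNA10, KCNA2 and KCNA3 lie within 464 kb and scored 58.0, 126, 69.8 and 174, and their cover was 7.35%, 84.2%, 5.15% and 94.3%. On chromosome 12, KCNA6, KCNA1 and KCNA5 lie within 238 kb and scored 86.2, 156 and 112. On chromosome 19, KCNA7 and KCNJ14 lie within 617 kb and scored 109 and 23.7, a ratio of 4.60. On chromosome 21, KCNE1 scored 101 with 48.5% cover and KCNE2, with no peak, 26.1, a ratio of 3.87. On chromosome 11, KCNC1 scored 61.7 and KCNJ11 21.6, whereas KCNJ5 and KCNJ1 scored 78.6 and 76.7. The pairs KCNJ10 and KCNJ9 (82.3 and 47.7), KCNJ2 and KCNJ16 (61.8 and 52.6), KCNK15 and KCNS1 (35.4 and 24.7), KCNMB2 and KCNMB3 (49.3 and 37.3), KCNJ15 and KCNJ6 (98.2 and 91.4) and KCNIP1 and KCNMB1 (76.7 and 49.2), whose intervals overlap, differed by less than 2 times.

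The 5 members on chromosome 8 had high scores, as had that chromosome in general. KCNS2, KCNQ3, KCNV1, KCNU1 and KCNB2 had a median score of 119, against 49.5 for the 85 members elsewhere. All symbols of chromosome 8 had a median of 93.5, against 42.2 for those of the other autosomes. Reads were not corrected for the extra copy, whose part in these scores was not tested. The 621 peaks over members had a median width of 1050 bp, and 592 of them outside chromosome 8 a median of 900 bp, as had all 121168 peaks of chromosomes 1 to 22. A width of 5 kb or more was found for 4.99% of the peaks over members and 3.76% of all, and outside chromosome 8 for 3.21% and 2.75%.

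Other ion channel families, given for scale, lay on both sides of the potassium channels. Voltage-gated calcium channel genes, a list that includes the CACNG genes, several of which encode partners of AMPA receptors, had a median score of 71.5, and 21 of 25 had a peak. The 14 voltage-gated sodium channel genes had a median of 33.9, and 7 had a peak, against the 51.2 and 59 of 90 of the potassium channels. These calcium and sodium channel genes are longer, with median lengths of 119 and 93.9 kb against 40.6 kb. Of all symbols 37.1% had a peak, and of those from 50 to 200 kb 74.0% did. The 4 HCN pacemaker channels had a median of 48.1, with HCN4 at 174, between 60 and 90 Mb of chromosome 15, a stretch that KBM7 is known to carry in an extra copy. Of 9 partners of potassium channels with other symbols, such as the sulfonylurea receptors ABCC8 and ABCC9, 7 had a peak and the median was 52.9. LRRC55, a modulator of the BK channel, was highest at 85.1, and DPP6, a partner of KCND channels, scored 52.9 with 94 peaks over 1102 kb.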

How the data were processed

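Per the labels' protocols, KBM7 chromatin was fixed with formaldehyde, sheared, precipitated with an H3K9me3 antibody or IgG and sequenced. Bowtie2, MACS and hg19 are named, per the submitters' processing notes, with no versions or roles. The sources used here do not give how reads were filtered or extended, nor whether peaks were called against IgG.

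The table that the authors deposited holds a read count for each of 40237 gene intervals, not normalised, the interval length in kb, and a score. The deposited score is the count divided by the length in kb, with a largest difference of 3.03e-06 over all intervals. With no scaling to depth and no correction for IgG or copies of a chromosome, it compares genes of this library only. Counts sum to 78512210, in which reads of overlapping intervals are counted more than once. The deposited peak list gives positions on a 150 bp grid with no height or significance, and adjoining peaks can abut, which splits peak numbers but not cover.

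Peak cover, peaks (overlap of 1 bp or more), peaks within 1 kb of the start, neighbours of 1 kb or more within 500 kb, exact Poisson intervals of scores and exact binomial (Clopper-Pearson) intervals of shares at 95% were computed with scipy 1.17.1, pandas 2.3.3 and numpy 2.4.6 under Python 3.11.15, and figures drawn with matplotlib 3.10.9. They cover counting error only, and reads are not molecules. A symbol with several intervals was given by its highest score. The overlap code was tested on 2000 simulated intervals, with 0 differing from direct counting. Protein-coding status and promoters came from RefSeq tables on GRCh38.p14. The 90 members each had 1 interval, all with 10 reads or more, and all matched a protein-coding gene. A symbol on X was not used, and some symbols of the same form are not reported here by name, of which 2 are in no count.

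Members and lists were chosen with earlier results of these data known. Named were the 10 highest and 5 lowest scores, the highest and lowest of each subfamily, all members of subfamilies under 3, the 10 highest covers, the 5 longest, up to 15 members with a start peak by its width, the blood cell list and members within 1 Mb of each other. KCNAB3, KCNG1, KCNG3, KCNG4, KCNH3, KCNH4, KCNH6, KCNH7, KCNJ12, KCNK13, KCNN2, KCNN3, KCNS3, KCNT2 and KCNV2 were named after their values were seen. Alternatives changed the background, the overlap, the peak width, the start window and the chromosomes used.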

Additional observations from a re-analysis of the deposited data

How the results depend on the processing

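Over 27 results, 97 of 112 alternative values were called the same as the value reported and 15 were called moved. Many of the 97 could not have moved, so their number does not measure robustness. Each member has 1 interval, so the choice of interval changes no member value. A background of protein-coding symbols, or a minimum of 1 kb or 10 reads, changes no median, cover or peak count of members. For the smaller subfamilies the interval of the median is the whole range of their genes. Counts were called the same within 1.5 times of the value reported. Medians and shares were called the same inside its confidence interval, where it had one. The narrow intervals of the background let small shifts count as moved. A change of direction was not assessed by this rule. The median score of all symbols, 43.6, was 34.6 over protein-coding symbols (66 members above it), 38.5 over symbols of 1 kb or more and 42.0 without chromosome 8 and 60 to 90 Mb of chromosome 15. The share of all symbols with a peak, 37.1%, was 44.1%, 42.7% and 36.6% over these sets, 39.1% with at least 10 reads, 33.0% where 50% of a peak had to lie inside the gene and 25.3% with peaks of 1500 bp or more. Without the 45 of 90 members that overlap another symbol, 27 of the rest lay above the median and 26 had a peak. These were compared as counts, not as shares, with the 55 and 59 of the full list, so a smaller list alone lowers them. With peaks of 1500 bp or more the median cover of members was 0.630%. Without KCNA, an alternative added after the data were seen, 4 members had 50% or more cover, and the median score was 49.2. Start peaks were found for 40 members in a window of 5 kb (29.4% of all symbols), for 14 at the start base alone (8.62%) and for 19 with peaks of 1500 bp or more (9.03%). No paired analysis was possible because 1 library was analysed. Low counts limit short genes most, as in KCNK7 with 43 reads, and mappability was not used here.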

Other observations

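The 10 kb beside a potassium channel gene could be marked where the gene was not, and the reverse. KCNH6 and KCNK16 had no peak over the gene, while 42.0% and 46.5% of the 10 kb before their starts lay in peaks. For KCNIP3 that share was 69.0% with 18.8% cover of the gene, and for KCNK12 it was 37.5% with 19.7%. On the other side, the 10 kb after the end lay in peaks over 87.0% for KCNQ3, 76.5% for KCNJ12 and 62.5% for KCNK13. For KCND3, KCNA4 and KCNK10 it was 0% after the end, but 30.0%, 26.8% and 31.5% before the start. KCNA10 and KCNA7 had 0% on both sides, with 84.2% and 67.9% cover of the gene. These shares were not set beside those of all symbols. KCNF1 had 0% before its start and 42.5% after its end.

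By chromosome, the 6 members on chromosome 19 had a median score of 24.3, and only KCNA7 had a peak. The 4 members on chromosome 21 had a median of 94.8, and 3 had a peak. The 14 members on chromosome 1 had a median of 60.2, and 11 had a peak. On chromosome 11, 3 of 8 members had one, with a median of 46.0.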
